A study of Mus musculus with 15 samples.

Results

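The 6 forkhead genes described here were followed in spleen CD4+ T cells of C57BL/6 mice: Foxp3, Foxp1 and Foxp4 of the Foxp branch, and Foxo1, Foxo3 and Foxo4 of the Foxo branch. They were taken by symbol, and all 6 were found among the 17594 genes of the deposited table. The 15 RNA libraries came from sorted regulatory T cells (Treg) and conventional CD4+ T cells (Tconv). The KO animals carried a conditional Hpgd knockout crossed to Foxp3-Cre-YFP, an allele that places Cre and a yellow reporter under the control of Foxp3, so that recombination is directed to Treg. They gave 4 Treg KO and 4 Tconv KO libraries. The control animals, labelled wild-type, gave 4 Treg WT and 3 Tconv WT libraries. Hpgd encodes the enzyme that inactivates prostaglandin E2. The labels do not say whether the control animals carried the Cre-YFP allele, which markers the sort used, or which libraries came from the same animal, so p-values measure the spread between libraries, which may in part be technical.

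Forkhead proteins bind DNA through a winged-helix domain. Foxp3 is the lineage factor of Treg: it keeps their suppressive programme in place, and animals without it develop fatal autoimmunity. Foxp1 and Foxp4 are close relatives that can pair with each other and with Foxp3; Foxp1 is known in T cells for maintaining naive quiescence. Foxo1, Foxo3 and Foxo4 are activated when PI3K and Akt signalling is low, because Akt phosphorylation moves them out of the nucleus. Foxo1 and Foxo3 are needed for Treg development and for the expression of genes such as Klf2, Il7r, S1pr1 and Ccr7.

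RefSeq promoter windows (GRCm38.p6, from 250 bases before to 50 bases after each annotated start) were available for 5 of the 6 genes. They were searched on both strands for TAAACA, the core letters of the forkhead site, and for its reverse complement TGTTTA. No other motif was searched. The windows of the 2 genes that differed between Treg and Tconv are shown, with the Foxp1 window that held the most matches for comparison. Capitals mark the match, each sequence is written 5′ to 3′ on the strand of its gene, and the Foxp4 window, in lower case throughout, holds none.
Foxp3, chrX:7579426-7579725, plus strand: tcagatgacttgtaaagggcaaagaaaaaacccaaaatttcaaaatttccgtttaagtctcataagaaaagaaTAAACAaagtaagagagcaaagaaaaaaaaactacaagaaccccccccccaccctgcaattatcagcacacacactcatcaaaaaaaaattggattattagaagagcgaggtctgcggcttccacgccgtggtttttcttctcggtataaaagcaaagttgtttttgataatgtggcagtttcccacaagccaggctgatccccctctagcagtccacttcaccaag
Foxp1, chr6:99266466-99266765, minus strand: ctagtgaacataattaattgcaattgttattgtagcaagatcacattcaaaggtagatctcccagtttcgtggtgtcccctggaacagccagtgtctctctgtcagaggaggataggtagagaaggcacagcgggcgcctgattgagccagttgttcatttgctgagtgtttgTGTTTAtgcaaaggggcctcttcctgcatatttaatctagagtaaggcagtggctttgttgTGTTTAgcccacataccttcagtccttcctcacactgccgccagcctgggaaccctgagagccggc
Foxp4, chr17:47924583-47924882, minus strand: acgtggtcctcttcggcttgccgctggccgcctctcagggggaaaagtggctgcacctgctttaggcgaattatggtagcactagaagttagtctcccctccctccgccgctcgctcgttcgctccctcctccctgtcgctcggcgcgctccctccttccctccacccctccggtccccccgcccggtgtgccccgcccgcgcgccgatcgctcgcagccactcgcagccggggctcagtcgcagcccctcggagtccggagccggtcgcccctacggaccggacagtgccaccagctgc
In the Foxp3 window the match began at position -177 relative to the RefSeq start of that window, which lies inside the longer gene span that GENCODE annotates, and a second annotated Foxp3 window, chrX:7580233-7580532, held none. The 3 Foxp1 windows held 1, 2 and 1 matches, and those of Foxo1 and Foxo3 held none. Of all 32851 promoter windows of this length, 13.4% held the motif. The windows differed in base composition: GC content was 40.7% in the Foxp3 window shown, 48.7% in that of Foxp1 and 70.3% in that of Foxp4. Of the gene lists described further on, 5 of 24 windows of Foxo target genes held the motif (20.8%), 1 of 14 windows of genes raised with Foxp3 (7.14%) and 1 of 17 windows of genes repressed by Foxp3 (5.88%). These are counts of letters, which show no binding.

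Depth differed with genotype. Libraries held 2.64 to 4.71 M reads in Treg KO, against 6.43 to 10.0 M reads in Treg WT, and 2.95 to 10.3 M reads in Tconv KO, against 6.60 to 11.1 M reads in Tconv WT. Values are the authors' counts divided by 1 size factor per library, called normalized counts here, and 1 read was worth 0.527 to 2.15 of them. Hpgd itself could not check the genotype labels, since it had 0 reads in Treg KO and 1 read in Treg WT, and 0 reads in both Tconv groups. The counts of 0 allow up to 0.193 reads in each M reads in Treg KO, 0.139 in Tconv KO and 0.114 in Tconv WT. Genotype ran together with sex-linked expression: Xist averaged 15567 ± 2586 normalized counts in Treg KO (SD, n = 4) against 1.84 ± 2.50 in Treg WT (n = 4), and Ddx3y was at 0 in all KO libraries against a mean of 1361 in Treg WT. Sex and genotype therefore cannot be told apart in any KO against WT comparison, which bears most directly on Foxp3 and Foxo4, both on the X chromosome. T cell markers were high in all libraries, with sums of 22928 to 32371 normalized counts over 7 genes. The sum over 10 B cell markers was 943 to 2003 in Treg KO, 591 to 894 in Treg WT, 114 to 474 in Tconv KO and 171 to 223 in Tconv WT; Pax5 was at 0 in Treg KO, and Blk was at 0 in Tconv WT. The sum over 10 CD8 T and NK cell markers was 238 to 374 in Treg KO, 243 to 293 in Treg WT, 831 to 2164 in Tconv KO and 836 to 1041 in Tconv WT, with Ncr1 at 0 in both Treg groups. Their part in the results was not tested.

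The question of the Treg against Tconv comparison was how far each gene separates the cell types. Foxp3 was 108-fold higher in Treg than in Tconv in KO and 251-fold higher in WT, Foxp4 was 1.42-fold and 1.66-fold higher, and the other 4 genes showed no difference that passed. Foxp3 (chrX:7573644-7595245, plus strand, GRCm38) had 4262, 4020.1, 3314 and 4589.7 normalized counts in Treg KO and 4766, 4435, 4800.3 and 4006 in Treg WT. In Tconv it had 47.2, 69.5, 27.6 and 18.9 in Tconv KO and 16.3, 20.6 and 14.4 in Tconv WT. Every Treg library lay above every Tconv library, and the Treg libraries of both genotypes overlapped. The difference was a log2 fold change of 6.75 ± 0.27 (SE) for Treg KO against Tconv KO and 7.97 ± 0.30 for Treg WT against Tconv WT, both of which passed in limma at an adjusted p under 0.05.  In bulk RNA, fewer cells of a type and less RNA per cell cannot be told apart. Foxp3 is the defining marker of Treg, and whether the sort gate used its reporter is not given, so its separation of the cell types is a check of the labels.

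**Figure D1:**
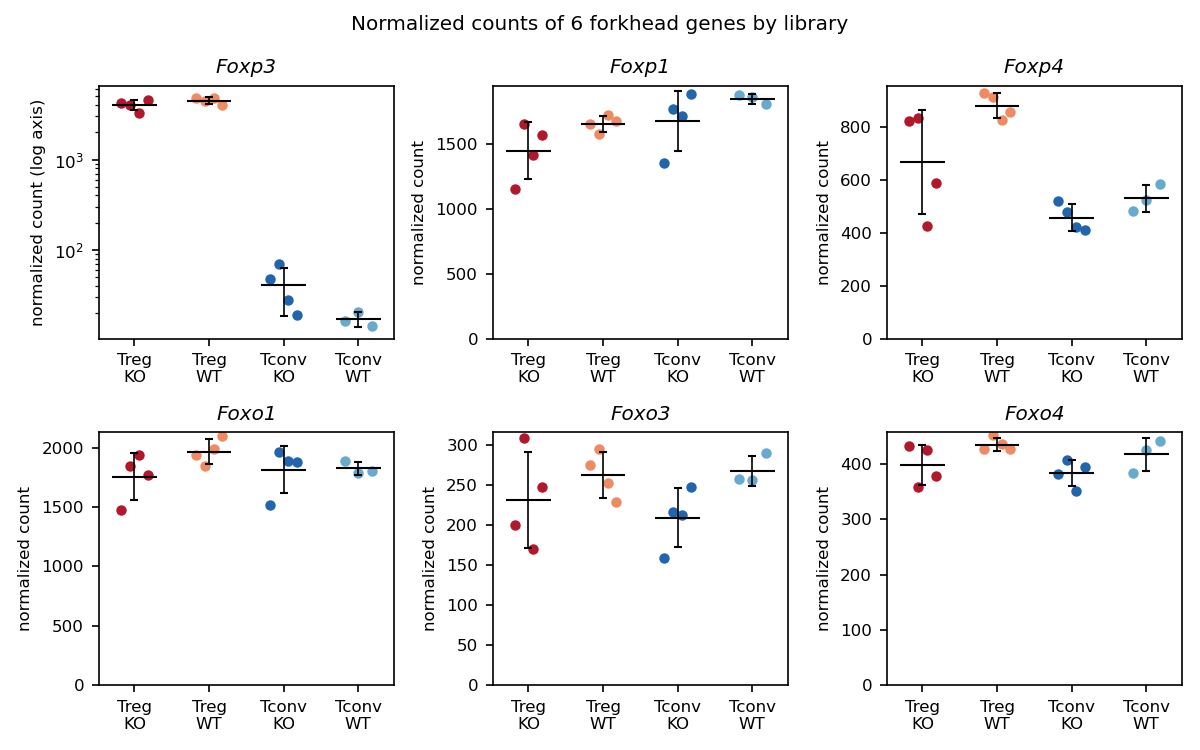
Normalized counts of Foxp3, Foxp1, Foxp4, Foxo1, Foxo3 and Foxo4 in each of 15 libraries; points are libraries, horizontal bars are group means and whiskers are SD, with a log axis for Foxp3. Foxp3 lies at 3314 or above in all Treg libraries and at 69.5 or below in all Tconv libraries, Foxp4 is split within Treg KO, and the other 4 genes have similar levels in the 4 groups.

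Foxp4 (chr17:47867133-47924645, minus strand), a Foxp3 relative expressed in many tissues, had 823, 833, 427 and 588 normalized counts in Treg KO, 927, 912, 825 and 856 in Treg WT, 519, 476, 422 and 409 in Tconv KO, and 482, 524 and 583 in Tconv WT. All Treg WT libraries lay above all Tconv WT libraries. In KO the cell types overlapped, because the third Treg KO library lay within the Tconv KO range. Foxp4 was higher by 0.73 ± 0.18 in Treg WT than in Tconv WT (adjusted p = 0.0082 in limma) and by 0.50 ± 0.16 in Treg KO than in Tconv KO (adjusted p = 0.029). The KO call was lost in a fit of only the groups compared (adjusted p = 0.119), without the first or the second Treg KO library (0.0951 and 0.0904) and without the third or the fourth Tconv KO library (0.0753 and 0.0731).

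Foxp1 (chr6:98925338-99522721, minus strand) had 1155, 1661, 1419.8 and 1570.0 normalized counts in Treg KO, 1658, 1577, 1725 and 1677 in Treg WT, 1353, 1772, 1717 and 1886 in Tconv KO, and 1885, 1862 and 1811 in Tconv WT. All Treg WT libraries lay below all Tconv WT libraries, by a small margin, and the KO groups overlapped. The difference did not pass in WT (log2 fold change -0.16 ± 0.12, adjusted p = 0.41 in limma) or in KO (-0.22 ± 0.11, adjusted p = 0.14). It passed in WT in a fit of only those groups (adjusted p = 0.027), and in KO without the first Tconv KO library (-0.32, adjusted p = 0.020).

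The Foxo genes showed no difference between Treg and Tconv that passed in either genotype. Foxo1 (chr3:52268336-52353221, plus strand), the most abundant of them, had 1475, 1843, 1937 and 1768 normalized counts in Treg KO, 1938, 1842, 1985 and 2096 in Treg WT, 1519, 1966, 1889 and 1882 in Tconv KO, and 1888, 1786 and 1801 in Tconv WT. The groups overlapped, and the first library of each KO cell type was its lowest. The interval of the Treg against Tconv difference was -0.24 to 0.15 on the log2 scale in KO and -0.10 to 0.31 in WT. Foxo3 (chr10:42181841-42276755, minus strand) had 200.2, 308, 170.2 and 247 normalized counts in Treg KO, 275, 295, 252 and 229 in Treg WT, 159, 217, 213 and 247 in Tconv KO, and 258, 257 and 289 in Tconv WT. The difference between cell types had intervals of -0.22 to 0.48 in KO and -0.41 to 0.35 in WT. Foxo4 (chrX:101254528-101260873, plus strand) had 432, 359, 427 and 378 normalized counts in Treg KO, 427, 452, 436 and 427 in Treg WT, 383, 408, 351 and 395 in Tconv KO, and 384, 426 and 443 in Tconv WT. Its intervals were -0.11 to 0.22 in KO and -0.11 to 0.24 in WT, the narrowest of the 6 genes.

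In all, 2 of the 6 genes passed in Treg KO against Tconv KO, where 31.4% of the 11314 tested genes passed, and 2 of 6 in Treg WT against Tconv WT, where 18.1% passed. Groups did not overlap for 1 of 6 genes in KO, against 24.1% of all tested genes, and for 3 of 6 in WT, against 41.1%. The median log2 fold change of the 6 genes was 0.09 in KO and 0.08 in WT, against -0.01 and -0.02 over all tested genes.

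Per kilobase of the longest annotated transcript, the place of Foxp3 among the 6 genes turned with the cell type. Foxp3 had the highest level in Treg, at 1055 ± 141 normalized counts per kb in Treg KO and 1174 ± 96.3 in Treg WT, and the lowest in Tconv, at 10.6 ± 5.87 in Tconv KO and 4.46 ± 0.819 in Tconv WT. Foxp1 and Foxo1 came close together, at 202 ± 30.8 and 203 ± 23.0 in Treg KO, 231 ± 8.58 and 227 ± 12.2 in Treg WT, 234 ± 32.1 and 209 ± 23.1 in Tconv KO, and 258 ± 5.26 and 211 ± 6.40 in Tconv WT. Only in Tconv WT did they differ by more than their SD. Foxp4 per kb was 167 ± 49.1 in Treg KO, 220.1 ± 11.9 in Treg WT, 114 ± 12.7 in Tconv KO and 132 ± 12.7 in Tconv WT, and Foxo4 per kb was 126 ± 11.4, 138 ± 3.78, 121 ± 7.71 and 132 ± 9.54 in the same groups, so that the 2 genes differed beyond their SD in Treg WT alone. Foxo3 was far lower, at 30.5 ± 5.35 to 39.1 ± 2.72 per kb over the 4 groups. The place of Foxp1 depends on the length used: over the union of its exons, which is 13751 bases against 7177 for the longest transcript, it had 106 per kb in Treg KO and 121 in Treg WT, below Foxp4 and Foxo4.

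The comparison of KO with WT in Treg asks how these factors stand in Treg of knockout animals. In limma 0 of 6 genes passed, where 21.5% of all tested genes passed. The same count of 0 came from edgeR and from DESeq2 on whole reads, and 1 of 6 genes, Foxp4, had an unadjusted p under 0.05, as had 36.3% of all tested genes. All 6 estimates were below 0, with log2 fold changes of -0.45 to -0.13 and a median of -0.19, against a median of 0.00 over all tested genes, and for all 6 genes the groups overlapped, whereas 26.2% of tested genes had no overlap. For Foxp3 the fold change was -0.16 ± 0.27 with an interval of -0.75 to 0.42 (adjusted p = 0.71). For Foxp1 it was -0.21 ± 0.11 (adjusted p = 0.18), for Foxo1 -0.17 ± 0.09 (0.20), for Foxo3 -0.21 ± 0.16 (0.37) and for Foxo4 -0.13 ± 0.08 (0.23).

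Foxp4 had the lowest of these values, -0.45 ± 0.16 (adjusted p = 0.063). Its groups overlapped by 1 library: the second Treg KO library, at 833 normalized counts, lay above the lowest Treg WT library, at 825. The call was made without the first Treg KO library (-0.57, adjusted p = 0.028) or without the second (-0.57, adjusted p = 0.022), and the value was -0.25 without the third. GC content moved with this value. The longest Foxp4 transcript has 63.4% GC, above 99.5% of tested genes, and each library's trend on GC content was measured as the median deviation of the GC-rich genes, those of at least 55.2% GC, minus that of the GC-poor genes, those of at most 43.7%. This trend was -0.10, -0.02, -0.87 and -0.16 in Treg KO and 0.27, 0.15, 0.12 and 0.29 in Treg WT, and the library at -0.87 was the one with the lowest Foxp4. With each library's GC trend removed, the Foxp4 value was 0.11 ± 0.09 (adjusted p = 0.47), and in the same setting Foxp1, at 44.9% GC, passed with -0.36 ± 0.11 (adjusted p = 0.046). The higher Foxp4 level of Treg against Tconv was kept in that setting, at 0.70 ± 0.09 in KO and 0.67 ± 0.10 in WT.

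**Figure D2:**
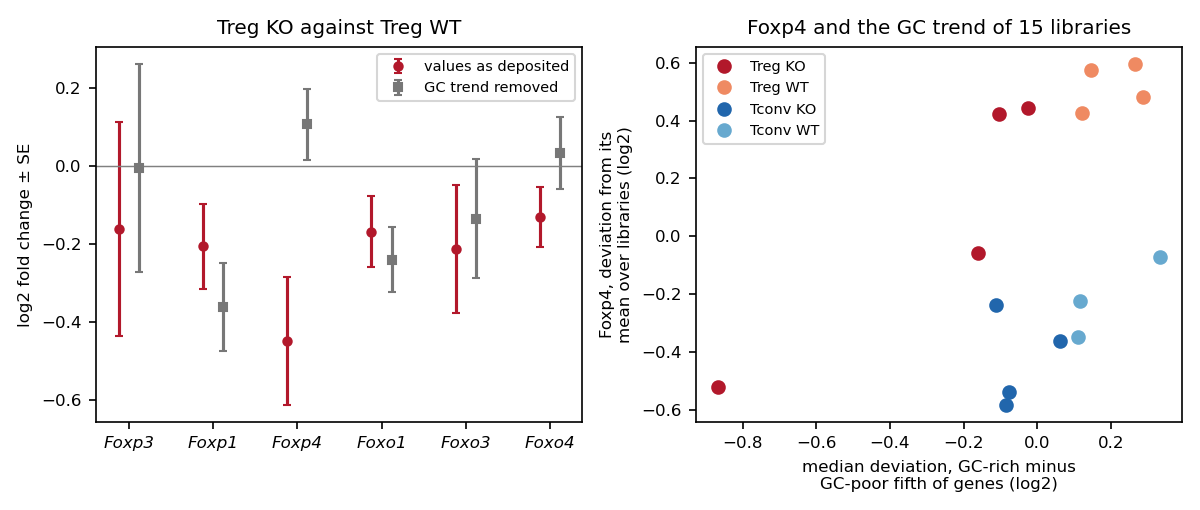
Left, log2 fold changes ± SE of the 6 genes in Treg KO against Treg WT, from the values as deposited and with each library's trend on GC content removed. Right, the deviation of Foxp4 from its mean over 15 libraries against each library's GC trend, both in log2 units; the Foxp4 value moves from -0.45 to 0.11 when the trend is removed, and 1 Treg KO library lies at -0.87 on the GC axis.

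In Tconv, to which the Cre is not directed, 0 of 6 genes passed in KO against WT in limma, where 0.681% of all tested genes passed; edgeR also gave 0, DESeq2 gave 1, and 1 of 6 genes, Foxp3, had an unadjusted p under 0.05, as had 1358 of the 11314 tested genes. Groups did not overlap for 1 gene, Foxo3, against 16.3% of all tested genes. Foxo3 was at -0.37 ± 0.18 (adjusted p = 0.42). Foxp1, Foxp4, Foxo1 and Foxo4 lay between -0.22 and -0.02.

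**Figure D3:**
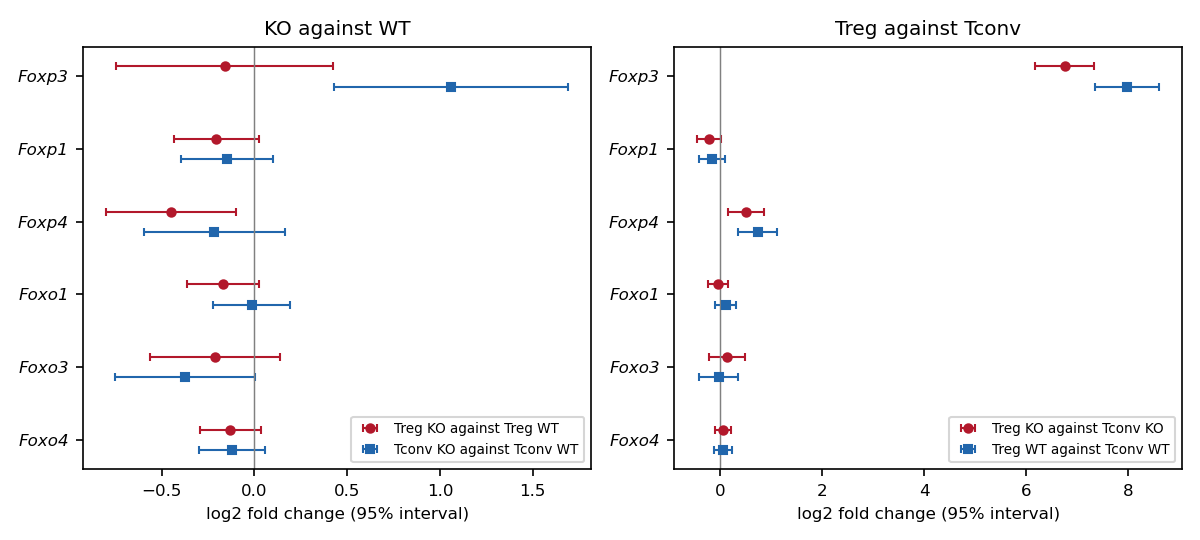
Log2 fold changes of the 6 genes with 95% intervals, KO against WT on the left and Treg against Tconv on the right, on different scales. The Foxp3 estimates in Treg against Tconv are 6.75 in KO and 7.97 in WT, Foxp4 lies above 0 in both, and the KO against WT estimate of Foxp3 is 1.06 in Tconv and -0.16 in Treg.

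The residual Foxp3 signal of Tconv was higher on average in KO, at 40.8 ± 22.5 normalized counts (SD, n = 4) against 17.1 ± 3.14 in Tconv WT (n = 3), but it did not pass (1.06 ± 0.30, adjusted p = 0.15 in limma). The signal rested on 27, 61, 14 and 34 reads in Tconv KO and 18, 39 and 21 reads in Tconv WT. The fourth Tconv KO library lay inside the WT range and the other 3 lay above it. The difference passed with DESeq2 (1.21, adjusted p = 0.010), with library weights (1.06, adjusted p = 0.035) and without the fourth Tconv KO library (1.36, adjusted p = 0.014), and it was 0.75 without the second. As a share of the mean Treg level of the same genotype, Foxp3 stood at 1.17%, 1.72%, 0.682% and 0.467% in Tconv KO and at 0.361%, 0.457% and 0.321% in Tconv WT.

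Other defining Treg genes varied in the same Tconv libraries. Ikzf2, which encodes Helios, had 3195, 1215, 1139 and 366 normalized counts in Tconv KO and 738, 870 and 839.8 in Tconv WT, and Ctla4, an inhibitory receptor, had 764, 424, 434 and 188 in Tconv KO and 266, 285 and 345 in Tconv WT. Il2ra, the high-affinity interleukin-2 receptor chain, was even, at 55.9 to 69.5 in Tconv KO and 44.3 to 64.8 in Tconv WT. Summed over Il2ra, Ctla4, Ikzf2 and Tnfrsf18, the level ran 4487, 2028, 1893 and 926 in Tconv KO and 1342, 1506 and 1565 in Tconv WT, against 15891 to 21444 in Treg KO and 13784 to 14801 in Treg WT. The first Tconv KO library was highest for Ikzf2 and Ctla4 and the second was highest for Foxp3, while the fourth was lowest for all 3 genes. For Il2ra and Tnfrsf18 the fourth was not lowest. It had 67.2 normalized counts of Il2ra against 55.9 in the first, and 305 of Tnfrsf18 against 262 in the third. Whether these markers have a part in the Foxp3 difference was not tested.

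**Figure D4:**
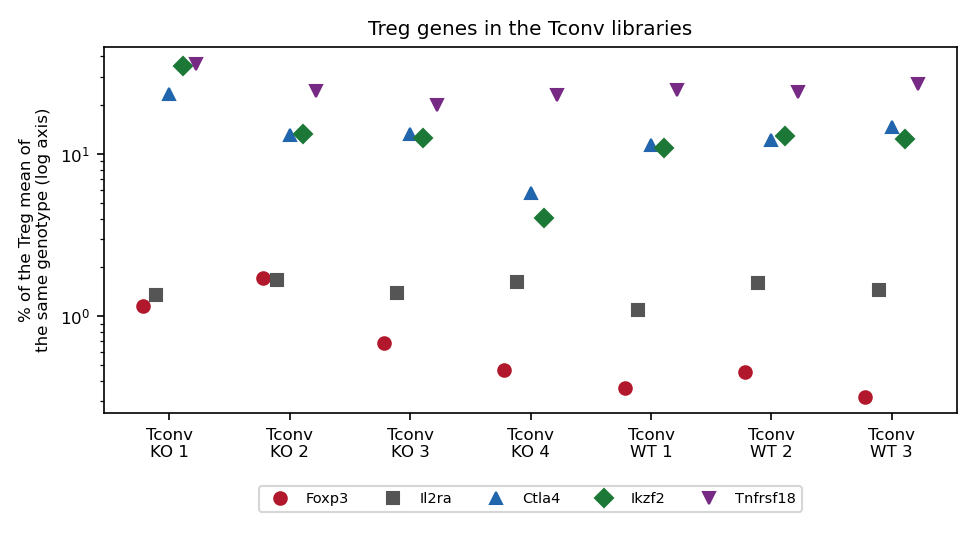
Level of Foxp3, Il2ra, Ctla4, Ikzf2 and Tnfrsf18 in each Tconv library as a percentage of the mean Treg level of the same genotype, on a log axis. Foxp3 is at 0.467% to 1.72% in the 4 Tconv KO libraries and 0.321% to 0.457% in the 3 Tconv WT libraries.

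The genotype difference in Treg was set against that in Tconv by an interaction term. Again 0 of 6 genes passed in limma, where 0.150% of all tested genes passed; edgeR gave 0, DESeq2 gave 1, and 1 of 6 genes had an unadjusted p under 0.05, as had 8.51% of all tested genes. That gene was Foxp3, at -1.22 ± 0.40 (adjusted p = 0.38), or -1.36 with DESeq2 (adjusted p = 0.042). The value combines the -0.16 of Treg with the 1.06 of Tconv, so it carries the low read counts of Tconv.

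Foxp3 shares its locus with other annotated genes: Ppp1r3f and Ccdc22 on the opposite strand overlap its ends, and whether the counting used strand is not given. Flicr on the same strand and Gm36995 on the opposite strand also overlap Foxp3. The deposited table does not hold them under these names, so their levels are not known. Ppp1r3f averaged 109 ± 28.7 normalized counts in Treg KO, 178 ± 11.6 in Treg WT, 63.8 ± 21.3 in Tconv KO and 80.2 ± 16.7 in Tconv WT. Ccdc22 averaged 194 ± 41.2, 216 ± 16.4, 259 ± 75.3 and 262 ± 57.4 in the same groups. Ppp1r3f and Ccdc22 are both well under the Foxp3 level of Treg and above that of Tconv. Whether reads of overlapping genes were counted as Foxp3 was not tested.

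Foxp3 was the only one of the 6 genes whose group means spanned more than 1 on the log2 scale, with Foxp4 next at 0.95. Among 8984 other genes with a mean of at least 50, those nearest to Foxp3 by the mean absolute difference of centred log2 values over the 15 libraries were Itgae (0.60), Il2ra (0.71), Fsd1l (0.72), Lrrc32 (0.77) and Dnah7a (0.84), against a median of 3.64. All of them but Il2ra met the mean of 50 only through Treg. Fsd1l averaged 1.49 normalized counts in Tconv KO and 0.527 in Tconv WT, and Dnah7a 5.17 and 3.98. At such levels the 1 added before taking log2 shapes the distance. Itgae encodes the integrin CD103, and Lrrc32 encodes GARP, a carrier of latent TGF-beta on Treg. Lrrc32 averaged 1109.5 ± 535 normalized counts in Treg KO and 2219.7 ± 155 in Treg WT, and 6.58 ± 7.59 in Tconv KO and 3.13 ± 2.01 in Tconv WT.

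Genes known to be raised with Foxp3 were almost all higher in Treg. This list, like the others, was chosen with earlier results of these data known, so its counts are a description and no test. It includes Il2ra, and whether the sort used Il2ra is not given. Of 20 tested, 20 passed as higher in Treg KO against Tconv KO (median 2.95) and 19 in Treg WT against Tconv WT (median 2.87), where 15.8% and 10.0% of all tested genes passed as higher. Il2ra was higher by 6.01 ± 0.13 in KO and 6.17 ± 0.14 in WT, Itgae by 6.22 ± 0.36 and 6.77 ± 0.38, Ikzf4, which encodes Eos, by 3.91 ± 0.24 and 4.44 ± 0.26 and Gpr83, an orphan receptor, by 3.35 ± 0.20 and 3.80 ± 0.22. Icos, an activation receptor, was the gene that did not pass in WT (0.48). Between Treg KO and Treg WT, 0 of the 20 passed, against 21.5% of all tested genes, and the values ran between -1.11 and 0.72 with a median of 0.09.

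Most genes known to be repressed by Foxp3 were lower in Treg. The counts of this list, too, are a description, since it was chosen with earlier results known. Of 11 tested, 9 passed as lower in Treg KO against Tconv KO (median -1.53, 15.6% of all tested genes) and 7 in Treg WT against Tconv WT (median -1.30, 8.06% of all); the others reached 0.13 in KO and 0.65 in WT. The phosphodiesterase gene Pde3b stood at -4.66 ± 0.27 in KO and -5.55 ± 0.29 in WT, Cd40lg, which encodes the CD40 ligand of helper cells, at -1.77 ± 0.11 and -2.15 ± 0.12, Themis, a regulator of receptor signalling, at -2.14 ± 0.10 and -2.11 ± 0.11, and Tcf7, the naive T cell factor TCF-1, at -1.31 ± 0.09 and -1.30 ± 0.09. Set against Treg WT, Treg KO had 3 of the 11 passing as higher and 0 as lower, where 10.4% of all tested genes passed as higher and 11.1% as lower: Ptpn22 (0.79 ± 0.13), Il7r (0.64 ± 0.21) and Cd40lg (0.33 ± 0.11). Il7r and Cd40lg each lost their call in 13 of 27 alternative settings, whereas Ptpn22 lost it in 0 of 27.

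**Figure D5:**
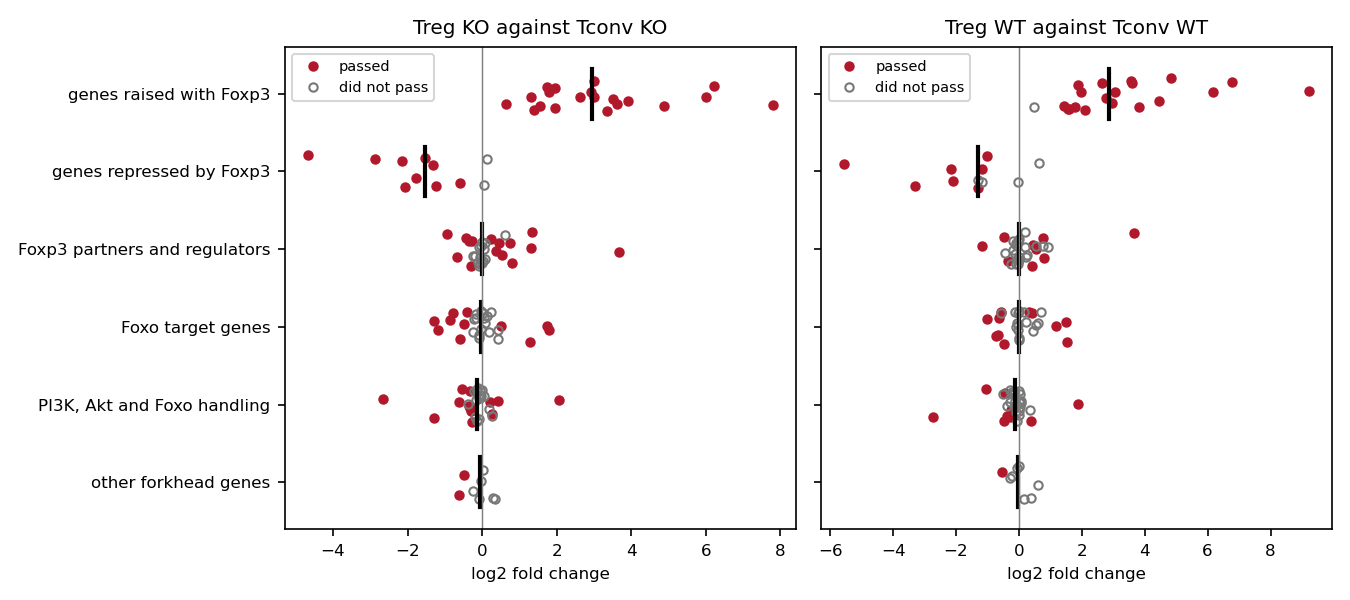
Log2 fold changes of the tested genes of 6 lists in Treg KO against Tconv KO (left) and Treg WT against Tconv WT (right); filled points passed at an adjusted p under 0.05, open points did not, and vertical bars mark the median. Genes raised with Foxp3 lie above 0, most genes repressed by Foxp3 lie below 0, and the medians of the other 4 lists lie between -0.14 and 0.00.

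Foxp3 partners and regulators, 30 genes, were mixed. In Treg KO against Tconv KO 9 passed as higher and 6 as lower (median 0.00), where 15.8% and 15.6% of all tested genes did, and in Treg WT against Tconv WT 6 and 3 (median -0.01), where 10.0% and 8.06% did. The histone deacetylase gene Hdac9 was higher by 3.68 ± 0.43 in KO and 3.65 ± 0.46 in WT, and Runx3, a factor of cytotoxic and helper lineages, was lower, at -0.95 ± 0.11 and -1.18 ± 0.12. Of the same 30 genes, 3 passed as higher and 5 as lower in Treg KO against Treg WT, where 10.4% and 11.1% of all tested genes did, among them Hdac1 (-0.74 ± 0.18), Hdac7 (-0.56 ± 0.12) and the corepressor gene Ctbp1 (-0.31 ± 0.09) as lower and Nfatc3 (0.32 ± 0.09) as higher; with the GC trend removed Hdac7 was -0.16 (adjusted p = 0.37), Ctbp1 -0.10 (0.17) and Nfatc3 0.18 (0.086), so their calls were lost. Bach2 (-0.62 ± 0.19) and Cxxc1 (-0.40 ± 0.14) also passed as lower, and Rel (0.37 ± 0.12) and Dnmt1 (0.19 ± 0.06) as higher; they are named because the counts were small, after their values were seen.

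Foxo target genes, 27 in all, went both ways. A total of 4 passed as higher and 7 as lower in Treg KO against Tconv KO (median -0.03), where 15.8% and 15.6% of all tested genes did, and in Treg WT against Tconv WT 5 and 6 (median -0.01), where 10.0% and 8.06% did. Gabarapl1, an autophagy gene, was higher by 1.79 ± 0.22 in KO and 1.50 ± 0.23 in WT, and Tnfsf10, which encodes TRAIL, by 1.27 ± 0.17 and 1.17 ± 0.18. S1pr1, the receptor for exit from lymph tissue, was lower, at -0.87 ± 0.11 and -0.66 ± 0.11. Klf2, the factor that drives S1pr1, was lower, at -1.20 ± 0.15 in KO, and its WT value is not reported here. In the interaction 0 of the 27 genes passed, so the lower Klf2 is not shown to be particular to KO. Between Treg KO and Treg WT, 2 passed as higher in Treg KO, Il7r and Cat (0.22 ± 0.07), and 2 as lower, Klf2 (-0.87 ± 0.15) and Bnip3 (-0.81 ± 0.26), where 10.4% and 11.1% of all tested genes did. Klf2 was at -0.40 with the GC trend removed and still passed, while Cat lost its call in 6 of 27 settings and Bnip3 in 9 of 26.

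Genes of PI3K, Akt and Foxo handling, 30 in all, gave 4 higher and 9 lower in Treg KO against Tconv KO (median -0.13), where 15.8% and 15.6% of all tested genes passed, and 2 higher and 7 lower in Treg WT against Tconv WT (median -0.14), where 10.0% and 8.06% passed. Sgk1, a kinase that phosphorylates Foxo proteins, was lower, at -2.67 ± 0.16 in KO and -2.73 ± 0.18 in WT, and Phlpp1, a phosphatase that removes Akt phosphorylation, was higher by 2.07 ± 0.17 and 1.88 ± 0.18. Pik3r5, a regulatory subunit of the gamma PI3K, was lower, at -1.28 ± 0.15 and -1.05 ± 0.16. Treg KO against Treg WT gave 4 higher and 3 lower, where 10.4% and 11.1% of all tested genes passed. Among them, Akt2 (-0.50 ± 0.09) and Pik3cd (-0.49 ± 0.11), the delta PI3K catalytic subunit, were lower, and Pik3cg (0.44 ± 0.10), the gamma subunit, was higher. With the GC trend removed Pik3cd was -0.24 and still passed. Pik3ca (0.33) and Ywhah (0.27) were also higher and Prmt1 (-0.21) also lower, named after their values were seen.

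The table held 28 other forkhead genes, of which 8 passed the filter on low values and were tested. Foxm1, a factor of proliferating cells, averaged 68.6 ± 19.3 normalized counts in Treg KO and 34.7 ± 12.2 in Treg WT (0.98 ± 0.30, adjusted p = 0.030 in limma), and the call was lost in 6 of 26 settings. The direction was the same in Tconv, where it averaged 57.9 ± 27.9 in Tconv KO and 21.8 ± 4.01 in Tconv WT. That difference did not pass. Foxk1, a metabolic regulator, stood at a mean of 1056 ± 164 in Treg KO against 1630.1 ± 261 in Tconv KO (-0.62 ± 0.12), and 1341 ± 111 in Treg WT against 1933 ± 137 in Tconv WT (-0.53 ± 0.13); the WT call was lost without the first Tconv WT library (adjusted p = 0.062). Foxn2 had a mean of 604 ± 42.3 normalized counts in Treg KO against 845 ± 63.6 in Tconv KO (-0.48 ± 0.09). In WT it had a mean of 665 ± 83.3 in Treg against 802 ± 56.5 in Tconv, and that difference did not pass. In Tconv KO against Tconv WT 0 genes of these 6 lists passed, where 0.292% of all tested genes passed as higher and 0.389% as lower. The interaction also gave 0, where 0.150% of all tested genes passed.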

How the data were processed

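RNA of sorted splenic Treg and Tconv was sequenced in 15 libraries. Per the labels' protocols, libraries were made with an Illumina TruSeq RNA kit. TopHat and the build mm10 are named, per the submitters' processing notes; not given in the sources used here: TopHat version, the counting, the strand setting, the annotation. The deposited values are a normalized signal per gene, which the authors made by dividing counts by 1 size factor per library, as the values show: 100% of them are whole multiples of the library's smallest value (tolerance 0.001), so whole reads were recovered. Intervals of log2 fold changes come from the SE of the limma fit and, like its p-values, measure the spread between libraries. The upper limits given for Hpgd cover counting error only, since reads carry no molecular identifiers.

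Values were taken as log2(value + 1); this pseudocount understates changes of low genes. The filter asked for 3 or more libraries at a value of 10 or higher; 11314 genes met it and entered 1 limma fit (3.58.1, R 4.3.3) of 4 group means with a mean-variance trend, and 5 two-sided contrasts were adjusted by Benjamini-Hochberg over all genes tested; all 6 members passed the filter. A gene passed at an adjusted p under 0.05. Alternatives were edgeR 4.0.16 (quasi-likelihood test) and DESeq2 1.42.0 (Wald test) on whole reads, other pseudocounts, filters and scalings, a fit of only the groups compared, library weights, thinning, removal of each library's GC trend, and leaving out each library. The fit was tested on simulated data. Gene positions, lengths and GC came from GENCODE vM21 (GRCm38), promoters from RefSeq. Python 3.11.15 with matplotlib 3.10.9 drew the figures.

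Named are the 6 members, up to 4 genes of each list with the smallest p per comparison, any gene of a list with 5 or fewer calls, the 5 genes nearest to a member whose group means span over 1 on the log2 scale, and marker and sex-linked check genes. Some genes that this rule would name are not reported here. The members and lists were chosen with earlier results of these data known. Replicate numbers follow sample accession order and only name a library. No 2 libraries of a group agreed within sampling noise (chi-square per degree of freedom 3.43 to 24.1).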

Additional observations from a re-analysis of the deposited data

How the results depend on the processing

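Of the 12 alternatives besides leaving out libraries, 1 member passed in Treg KO against Treg WT with the GC trend removed, 1 in Tconv KO against Tconv WT with DESeq2 and with library weights, 1 in Treg KO against Tconv KO and 3 in Treg WT against Tconv WT in a fit of only the groups compared, and 1 in the interaction with DESeq2. Leaving out libraries gave 0 to 1 members in Treg KO against Treg WT, 0 to 1 in Tconv KO against Tconv WT and 1 to 3 in Treg KO against Tconv KO. Foxp3 in Tconv KO against Tconv WT was 1.21 with DESeq2 and 1.06 with library weights, and 0.75 to 1.36 when libraries were left out; its interaction was -1.36 with DESeq2. Foxp3 passed in Treg against Tconv in all of these settings, at 6.45 to 7.06 in KO and 7.49 to 8.10 in WT.

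Values that did not pass changed sign as follows; the cause was not tested. With the GC trend removed, Treg KO against Treg WT was 0.107 for Foxp4 and 0.0333 for Foxo4, Tconv KO against Tconv WT was 0.0757 for Foxp4, and the interaction was 0.0317 for Foxp4 and 0.0823 for Foxo4. Foxo1 in Tconv KO against Tconv WT was 0.0318 with quantile normalization, 0.0383 with library weights and 0.0142 with thinned reads. Foxo3 in Treg WT against Tconv WT was 0.0201 with library weights and 0.0651 with thinned reads. Leaving out 1 library at a time, Foxo1 ranged from -0.0563 to 0.0675 in Tconv KO against Tconv WT and from -0.130 to 0.0339 in Treg KO against Tconv KO, and Foxo3 from -0.0884 to 0.0338 in Treg WT against Tconv WT and from -0.0199 to 0.264 in Treg KO against Tconv KO. In the interaction, Foxp1 ranged from -0.157 to 0.0493 and Foxo4 from -0.0529 to 0.0491.

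Over all settings the count of all genes that passed ran from 1394 to 2779 in Treg KO against Treg WT (2431 as reported), from 22 to 307 in Tconv KO against Tconv WT (77), from 1405 to 4330 in Treg WT against Tconv WT (2046), from 2042 to 3948 in Treg KO against Tconv KO (3558) and from 3 to 91 in the interaction (17). Single libraries moved it: to 1394 and 1495 in Treg KO against Treg WT without Treg WT replicates 1 and 4, and in Tconv KO against Tconv WT to 249 without Treg KO replicate 3, 50 without Tconv KO replicate 1 and 22, 27 and 30 without Tconv WT replicates 1, 2 and 3. No paired analysis was made, because the labels do not say which libraries share an animal. Label numbers ran from 483 to 490 in WT and from 574 to 581 in KO, and mostly alternated between Treg and Tconv. What the numbers stand for is not given. Depth limits the Foxp3 values of Tconv, which rest on 14 to 61 reads a library.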

Other observations

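Foxk2, a forkhead gene outside the 6, was singled out after its values were seen. It had 743 to 789 normalized counts in the 4 WT libraries with the label numbers 483 to 486, of both cell types, and 396 to 463 in the other 11 libraries, KO libraries included. The gap between these sets was 0.68 on the log2 scale, and since the sets were noticed on Foxk2 itself, its gap is a description only. Of 8985 genes with a mean of at least 50, 25 had no overlap between these sets. The labels give no date or batch for these libraries, and what the sets share was not tested.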
